A study of Homo sapiens with 6 samples.

Results

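The ERBB receptors, the EGF-family ligands that bind them and the intracellular ERBB inhibitor ERRFI1 were followed in 6 Affymetrix PrimeView arrays. The members were fixed by name as 10 genes: the receptors EGFR, ERBB2, ERBB3 and ERBB4, the ligands HBEGF, BTC, EREG, TGFA and AREG, and ERRFI1. A probe set, the array's unit of measurement for a transcript, was used where the platform annotation gives it exactly 1 gene symbol and that symbol is a member. This gave 32 of 44988 such probe sets and 9 of 18132 genes. No probe set was taken for AREG, which is not analysed here.

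The 3 control samples (shControl) carried a control short hairpin RNA (shRNA) and the 3 knockdown samples (shSHCBP1) an shRNA against SHCBP1, both brought in by lentivirus. By their titles the cells are TPC-1, a line established from a papillary carcinoma of the thyroid. The RNA extraction protocol speaks instead of DLD1, a line from colorectal carcinoma. The comparison asks how these genes differ after knockdown of SHCBP1, a protein that binds the adaptor SHC1. Adaptors of the SHC family are known to dock on activated ERBB receptors. The labels name no other hairpin against SHCBP1 and no rescue, and effects of the hairpin other than SHCBP1 loss cannot be told apart from it. Separate cultures are not named, and p-values here set a group difference only against the spread of these samples, which can be technical variation.

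ERBB receptors are tyrosine kinases of the cell surface that pair up when a ligand binds and then switch on the RAS-ERK and PI3K cascades. EGFR binds most of these ligands, ERBB3 and ERBB4 bind neuregulins, and ERBB2 has no known ligand and serves as a partner. The ligands are made as membrane-anchored precursors and are released by surface proteases, chiefly of the ADAM family. Several of them, and ERRFI1, are known to be induced by the signal they act on, which makes them part of positive and negative feedback loops.

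In the deposited values, read here as log2, each probe set has been centred, with a median of 0 across the 6 arrays. They compare arrays and hold no expression level. For the same reason no gene's level can be set against another's, and the marker genes of thyroid or intestine cannot be read as present or absent. Of 7 thyroid markers tested 1 rose and 1 fell, of 7 intestinal markers 2 rose and 1 fell, and of 6 fibroblast markers 0 were called by limma (adjusted p from 0.0535 to 0.846). At an unadjusted p of 0.05, limma put 1 of these 6, COL1A1, past the threshold (unadjusted p = 0.0222). SHCBP1 itself had centred values of 0.72, 0.76 and 0.71 with control shRNA against -0.95, -0.76 and -0.72 with SHCBP1 shRNA. It was 2.91-fold lower in the knockdown arrays, with no overlap, a log2 difference of -1.54 ± 0.06 (SE, n = 3 arrays per group). The poly-A spike-in controls were 0.39 ± 0.04 log2 (SE) higher in the knockdown arrays, and a 28S ribosomal RNA control probe set 2.80 ± 0.03 (SE) higher, while one for 18S ribosomal RNA moved by -0.24 ± 0.01 (SE). The 3′ minus 5′ difference for GAPDH moved by -0.0059 log2 and that for ACTB by -0.08. Scaling to the spike-ins moves every gene by -0.39 log2, so each change below is one against the bulk of genes. The part of these control signals in the results was not tested.

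Of the 9 measured genes, 6 fell, 1 rose and 2 did not pass the test. HBEGF, EGFR and BTC fell furthest, by 1.93-fold, 1.73-fold and 1.42-fold, followed by ERRFI1 (1.32-fold), EREG (1.30-fold) and ERBB3 (1.11-fold). TGFA rose 1.09-fold, and ERBB2 and ERBB4 were not called. Calls were made with limma's moderated test at a Benjamini-Hochberg adjusted p under 0.05, adjusted over all 18132 genes. It called 41% of all genes, 19% lower and 22% higher, against which the 6 falls and 1 rise among 9 are to be read. Groups that do not overlap, stated for each member below, occurred in 50% of all genes, 22.7% with lower and 27.3% with higher knockdown values. The median log2 difference of the 9 genes was -0.38, and that of all genes was 0.02.

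**Figure D1:**
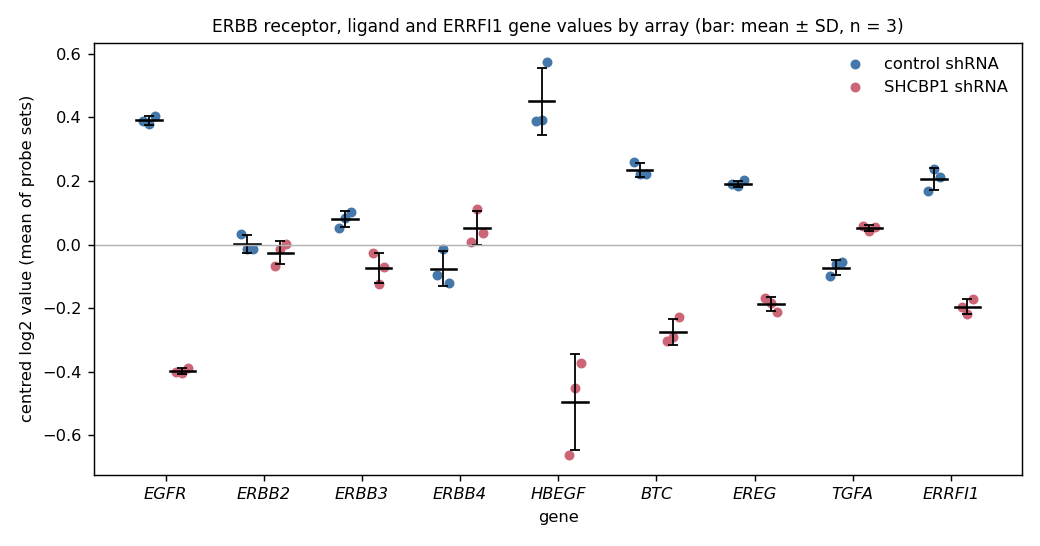
Centred log2 value (mean of a gene's probe sets) on the y axis for each of the 9 genes on the x axis, with 1 point per array, blue for control shRNA and red for SHCBP1 shRNA, and black bars for mean ± SD (n = 3). The control points lie above the knockdown points for EGFR, ERBB3, HBEGF, BTC, EREG and ERRFI1 and below them for ERBB4 and TGFA, and the groups overlap for ERBB2.

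Upstream sequences are shown for 5 genes that fell in the same arrays, so that their start regions can be compared. They are the 250 bases before the RefSeq gene start (GRCh38.p14), and 8 of the 9 measured genes matched an entry. Capitals mark matches to any of 6 short motifs searched on both strands. The AP-1 motif was written TGANTCA and the cyclic AMP response element TGACGTCA. The GC box was written GGGCGG, and for the TATA box the letters were TATAAA. The motif of ETS factors was taken as CCGGAAGT, while the E-box was read as CACGTG. GC boxes can overlap one another. EGFR has 2 starts in the table, and the first is shown. The windows are chr7:55018767-55019016 (plus strand) for EGFR, chr5:140346604-140346853 (minus strand) for HBEGF, chr4:74794524-74794773 (minus strand) for BTC, chr4:74364895-74365144 (plus strand) for EREG and chr1:8026310-8026559 (minus strand) for ERRFI1. For contrast the window of ERBB2, which was not called, is chr17:39687844-39688093 (plus strand).
EGFR: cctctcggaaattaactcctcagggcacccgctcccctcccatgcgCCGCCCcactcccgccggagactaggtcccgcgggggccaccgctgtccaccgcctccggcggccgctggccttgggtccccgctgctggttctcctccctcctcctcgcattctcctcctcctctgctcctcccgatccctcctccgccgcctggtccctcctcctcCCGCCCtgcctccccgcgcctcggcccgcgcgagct
HBEGF: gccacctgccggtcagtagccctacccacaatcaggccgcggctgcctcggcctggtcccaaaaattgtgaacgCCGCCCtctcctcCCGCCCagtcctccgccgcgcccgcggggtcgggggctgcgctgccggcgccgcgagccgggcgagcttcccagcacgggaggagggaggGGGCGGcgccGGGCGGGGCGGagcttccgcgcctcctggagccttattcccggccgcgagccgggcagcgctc
BTC: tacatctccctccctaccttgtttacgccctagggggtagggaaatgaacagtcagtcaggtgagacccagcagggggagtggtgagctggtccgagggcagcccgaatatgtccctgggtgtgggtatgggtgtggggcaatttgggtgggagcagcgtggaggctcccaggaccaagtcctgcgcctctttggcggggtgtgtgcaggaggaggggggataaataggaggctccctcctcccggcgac
EREG: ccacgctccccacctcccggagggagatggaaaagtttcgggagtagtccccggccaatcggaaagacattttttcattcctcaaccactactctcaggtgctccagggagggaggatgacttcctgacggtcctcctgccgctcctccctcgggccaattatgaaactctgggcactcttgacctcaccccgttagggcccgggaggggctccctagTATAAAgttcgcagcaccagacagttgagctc
ERRFI1: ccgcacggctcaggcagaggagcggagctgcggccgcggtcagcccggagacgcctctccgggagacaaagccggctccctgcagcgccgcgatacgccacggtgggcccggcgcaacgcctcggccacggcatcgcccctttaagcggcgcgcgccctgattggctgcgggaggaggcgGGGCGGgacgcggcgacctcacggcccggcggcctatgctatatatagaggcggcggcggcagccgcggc
ERBB2: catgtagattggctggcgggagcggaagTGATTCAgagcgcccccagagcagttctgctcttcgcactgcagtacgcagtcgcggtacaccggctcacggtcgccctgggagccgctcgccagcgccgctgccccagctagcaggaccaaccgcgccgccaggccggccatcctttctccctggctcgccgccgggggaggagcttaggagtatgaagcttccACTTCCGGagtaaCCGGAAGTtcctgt

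The window of HBEGF held 5 GC boxes and was 76.4% G or C, that of EGFR at its first start held 2 at 73.6%, and that of ERRFI1 held 1 at 75.2%. The window of the second EGFR start, chr7:55109589-55109838 (plus strand), was unlike the first, with 38.8% G or C, 2 AP-1 motifs, 2 TATA boxes and no GC box. EREG had a TATA box that ends 27 bases before the start, in a window of 58% G or C. BTC held none of the 6 motifs. Of all 35114 windows of this length, 42.6% hold a GC box, 10.7% a TATA box and 6.57% an AP-1 motif. ERBB2 had 2 ETS motifs, ending 20 and 7 bases before the start, a motif found in 3.42% of windows. GC boxes were not limited to genes that fell. TGFA, which rose, held 3 at its first start, in a window of 75.6% G or C. The window of its second start held none, at 64%. ERBB4, which was not called, held 1 GC box at 57.2%. Since BTC held none, no motif was in all 5 windows printed for genes that fell. Those of EGFR, HBEGF and ERRFI1 shared the GC box. A match is a string of letters, and no factor was measured here.

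EGFR is the receptor for HBEGF, BTC, EREG and TGFA. Its centred log2 values with control shRNA were 0.39, 0.38 and 0.41, against -0.40, -0.41 and -0.39 with SHCBP1 shRNA. All 3 control values lay far above all 3 knockdown values, and within a group they spread by an SD of 0.0134 at most. Single EGFR probe sets spread more, with an SD of up to 0.26 (11751983_a_at with SHCBP1 shRNA). The log2 difference was -0.79 ± 0.03 (SE, 95% confidence interval -0.86 to -0.72, limma Benjamini-Hochberg adjusted p = 1.82e-06). Of all genes, 1.81% had a lower value.

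That mean was taken over 8 EGFR probe sets whose changes ran from -1.67 to 0.10 log2. In the fit on single probe sets, which called 38.5% of all 44988, 18.2% lower and 20.3% higher, 6 of the 8 fell and 2 were not called. Both probe sets annotated with the RefSeq transcript of full-length EGFR fell strongly. Probe set 11725103_s_at measured 0.78, 0.62 and 0.70 with control shRNA against -0.63, -0.68 and -0.62 with SHCBP1 shRNA. Probe set 11725102_at had 0.39, 0.76 and 0.67 against -0.63, -0.39 and -0.39. These are differences of -1.34 and -1.08, or 2.54-fold and 2.11-fold, with no overlap between groups in either. The share of all single probe sets without overlap was not counted. Probe sets 11751983_a_at and 11725104_a_at, annotated with other EGFR complementary DNAs, fell by 1.67 and 1.31.

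The 3 EGFR probe sets annotated with RefSeq transcripts of shortened receptors changed less. Those transcripts encode EGFR forms known to lack the membrane-spanning and kinase parts. Probe set 11742247_a_at fell by 0.60 and probe set 11733760_a_at by 0.32 on the log2 scale. The third, 11738815_at, was not called: its values with control shRNA were 0.0066, -0.02 and -0.15, against 0.08, 0.06 and -0.0066 with SHCBP1 shRNA. These groups overlap, and the difference was 0.10 with a 95% confidence interval of -0.03 to 0.23 (limma adjusted p = 0.227). Probe set 11762479_at was not called either, at -0.08 with an interval of -0.21 to 0.04. Affymetrix uses the ending _a_at for probe sets that match several transcripts of 1 gene, so only 11738815_at and 11762479_at of these 4 carry a name for 1 transcript.

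Whether probe sets of a gene changed by different amounts was tested with limma's diffSplice over the 11734 genes with several probe sets. It called 26.8% of them, and EGFR was among these (F test, Benjamini-Hochberg adjusted p = 5.87e-14 over all such genes). The spread of 1.77 log2 between its highest and lowest probe set was exceeded by 0.153% of these genes, whose median spread was 0.18. Against the rest of the gene, 11751983_a_at was lower by 1.01 log2 (diffSplice adjusted p = 8.97e-10) and 11738815_at was higher by 1.01 (adjusted p = 7.60e-10). The test treats probe sets on an array as independent, and centred values do not show whether a probe set was above background.

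**Figure D2:**
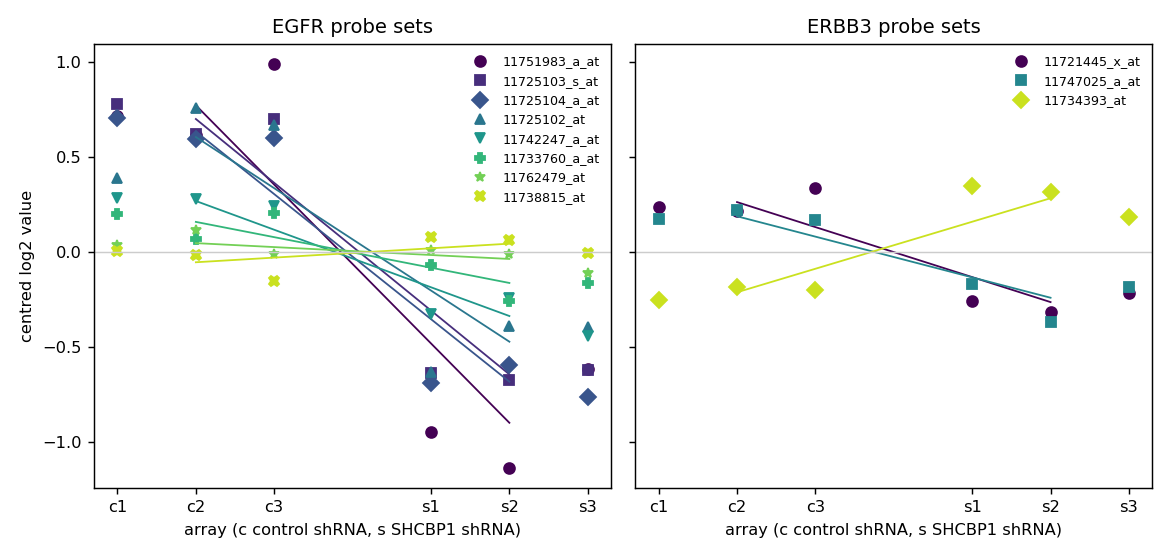
Centred log2 value on the y axis for each EGFR (left) and ERBB3 (right) probe set, by array on the x axis (c, control shRNA; s, SHCBP1 shRNA), with lines joining the group means. EGFR probe sets fan out from a difference of -1.67 to 0.10, and in ERBB3 1 probe set rises by 0.49 while 2 fall.

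ERBB3, a receptor whose own kinase is weak and which signals through its partners, had probe sets called in both directions, whereas those of EGFR were called lower or not called. Probe set 11721445_x_at measured 0.24, 0.21 and 0.34 with control shRNA against -0.26, -0.32 and -0.21 with SHCBP1 shRNA, a difference of -0.53 ± 0.05 (SE). Probe set 11747025_a_at fell by 0.43. Probe set 11734393_at, annotated with the RefSeq transcript of a short secreted ERBB3 form, measured -0.25, -0.18 and -0.20 with control shRNA against 0.35, 0.32 and 0.18 with SHCBP1 shRNA, a rise of 0.49 ± 0.06 (SE). No pair of groups overlapped, and all 3 passed (limma adjusted p = 0.000159, 0.001 and 0.000295). Probe sets called in both directions occurred in 4.11% of genes with several probe sets, and diffSplice called ERBB3 (F test, adjusted p = 4.62e-08). With spike-in scaling the rise of 11734393_at was 0.10 and was not called.

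The gene value of ERBB3 therefore averages opposite changes. Its values with control shRNA were 0.05, 0.08 and 0.10, against -0.03, -0.12 and -0.07 with SHCBP1 shRNA, a difference of -0.15 ± 0.04 (SE, limma adjusted p = 0.0135). These groups did not overlap. The median of the probe sets in place of their mean gave -0.41. Leaving out probe sets ending in _s_at or _x_at, which Affymetrix uses for probes shared between transcripts or genes, left 0.03, which was not called (limma adjusted p = 0.628).

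ERBB2, the partner receptor without a ligand, was not called by the gene mean or by any of its 5 probe sets. Its values with control shRNA were 0.03, -0.02 and -0.02, against -0.07, -0.01 and 0.0031 with SHCBP1 shRNA, which overlap. The difference was -0.03 with a 95% confidence interval of -0.11 to 0.06 (limma adjusted p = 0.62), and the probe sets ran from -0.12 to 0.03. With spike-in scaling it was -0.42 and was called lower.

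ERBB4, a neuregulin receptor, measured -0.09, -0.01 and -0.12 with control shRNA against 0.0082, 0.11 and 0.04 with SHCBP1 shRNA. The groups did not overlap, yet the difference of 0.13 ± 0.04 (SE) did not pass (limma adjusted p = 0.0519). It passed with the replicate number as a block (limma adjusted p = 0.0385), with array weights (0.0418) and without shControl replicate 2 (0.0333). Of 14 alternatives, 10 left it not called, with limma adjusted p up to 0.153. Of its 3 probe sets 11725911_a_at rose by 0.32 and the others, at 0.09 and -0.03, were not called. diffSplice called the gene (F test, adjusted p = 0.0121) but not without shControl replicate 1 (0.0991) or shSHCBP1 replicate 2 (0.0522). With spike-in scaling the gene difference was -0.26, called lower (limma adjusted p = 0.00286), and diffSplice no longer called the gene (F test, adjusted p = 0.0544).

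**Figure D3:**
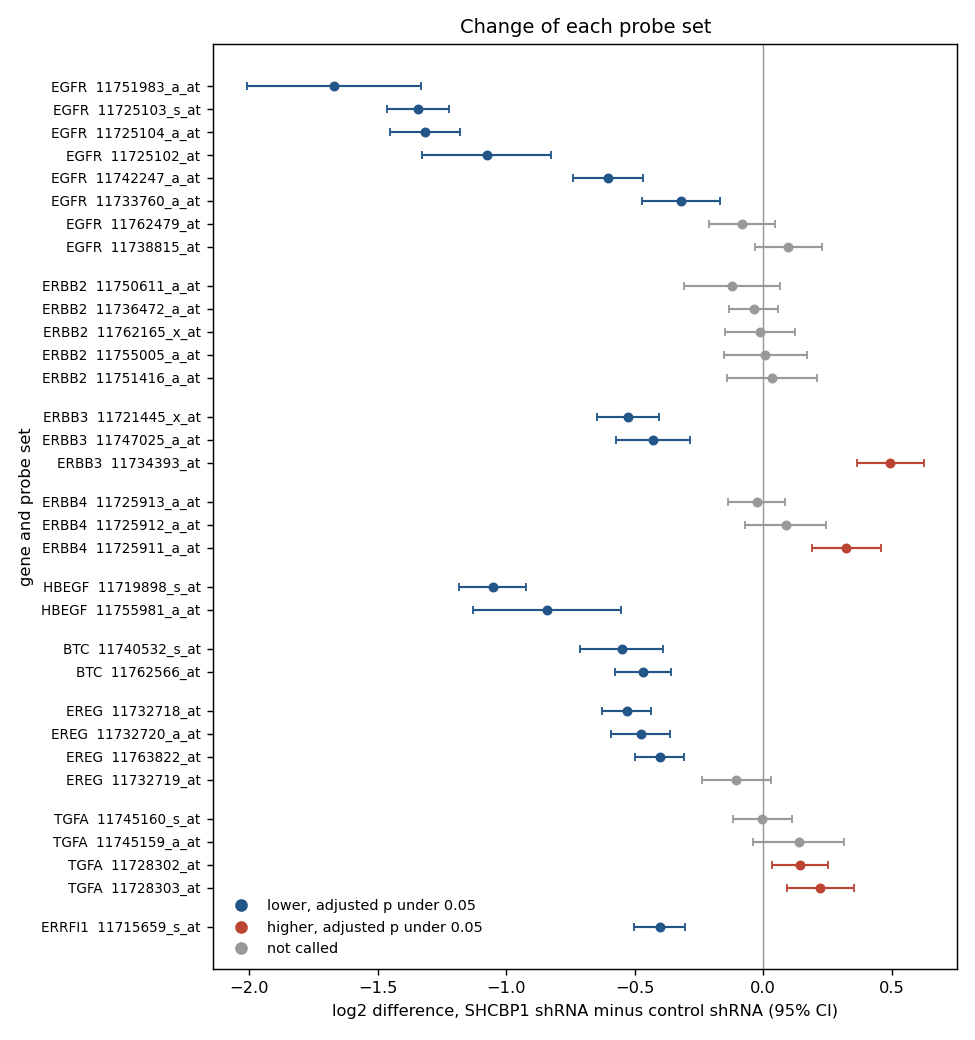
Log2 difference (SHCBP1 shRNA minus control shRNA) on the x axis with its 95% confidence interval for each of the 32 probe sets, grouped by gene on the y axis; blue marks a call lower, red a call higher and grey no call. Blue marks 16 probe sets, red 4 and grey 12, and EGFR and ERBB3 show the widest spread between probe sets of 1 gene.

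Among the ligands, 3 of the 4 measured fell and 1 rose. HBEGF, a heparin-binding ligand of EGFR and ERBB4, measured 0.39, 0.39 and 0.57 with control shRNA against -0.66, -0.45 and -0.37 with SHCBP1 shRNA. The groups lay far apart, and the spread was the widest of the 9 genes. The log2 difference was -0.95 ± 0.08 (SE, 95% confidence interval -1.14 to -0.75, limma adjusted p = 7.43e-05). Its probe sets 11719898_s_at and 11755981_a_at fell by 1.05 and 0.84 and were not called different from each other (diffSplice F test, adjusted p = 0.358). Of all genes, 1.06% had a lower value.

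BTC (betacellulin), which also binds EGFR and ERBB4, measured 0.26, 0.22 and 0.22 with control shRNA against -0.30, -0.29 and -0.23 with SHCBP1 shRNA. The groups did not overlap, and the difference was -0.51 ± 0.04 (SE, limma adjusted p = 2.32e-05). Probe sets 11740532_s_at and 11762566_at fell by 0.55 and 0.47.

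EREG (epiregulin), another ligand of EGFR and ERBB4, measured 0.19, 0.18 and 0.20 with control shRNA against -0.17, -0.18 and -0.21 with SHCBP1 shRNA. The groups did not overlap, and the difference was -0.38 ± 0.03 (SE, limma adjusted p = 5.40e-05), with an SD of at most 0.022 within a group. Probe sets 11732718_at, 11732720_a_at and 11763822_at fell by 0.53, 0.48 and 0.40. Probe set 11732719_at stood at -0.11, with a 95% confidence interval of -0.24 to 0.03, and was not called. diffSplice called these probe sets different (F test, adjusted p = 6.06e-05). BTC and EREG both lie on chromosome 4, in the windows given with their upstream sequences.

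TGFA, an EGFR ligand, measured -0.10, -0.06 and -0.05 with control shRNA against 0.06, 0.04 and 0.06 with SHCBP1 shRNA. The groups did not overlap, and the difference was 0.13 ± 0.03 (SE, 95% confidence interval 0.05 to 0.20, limma adjusted p = 0.0156). Probe set 11728303_at rose by 0.22, a call lost without shSHCBP1 replicate 2 (limma adjusted p = 0.0542). Probe set 11728302_at passed at 0.14 (limma adjusted p = 0.0429), but leaving out any 1 array other than shSHCBP1 replicate 2 ended the call (adjusted p from 0.0712 to 0.134). So did repeated quantile normalization (0.0639), centring of the arrays (0.0576) and the replicate number as a block (0.0742). The other 2 were not called, at 0.14 and -0.0036, although without shControl replicate 2 the first of these, 11745159_a_at, was called at 0.22. For the gene mean of TGFA, the call was lost without shControl replicate 1 (limma adjusted p = 0.0607). With spike-in scaling its difference was -0.26, called lower. That scaling called all 9 genes and 30 of the 32 probe sets lower.

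ERRFI1 encodes a cytosolic protein (also called MIG6) that binds the kinase part of ERBB receptors and inhibits it. Its only probe set, 11715659_s_at, measured 0.17, 0.24 and 0.21 with control shRNA against -0.20, -0.22 and -0.17 with SHCBP1 shRNA. The groups did not overlap, and the difference was -0.40 ± 0.03 (SE, limma adjusted p = 6.66e-05). The inhibitor was thus lower in the same arrays as the receptor EGFR. A value that rests on 1 probe set with this ending may include related sequences.

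**Figure D4:**
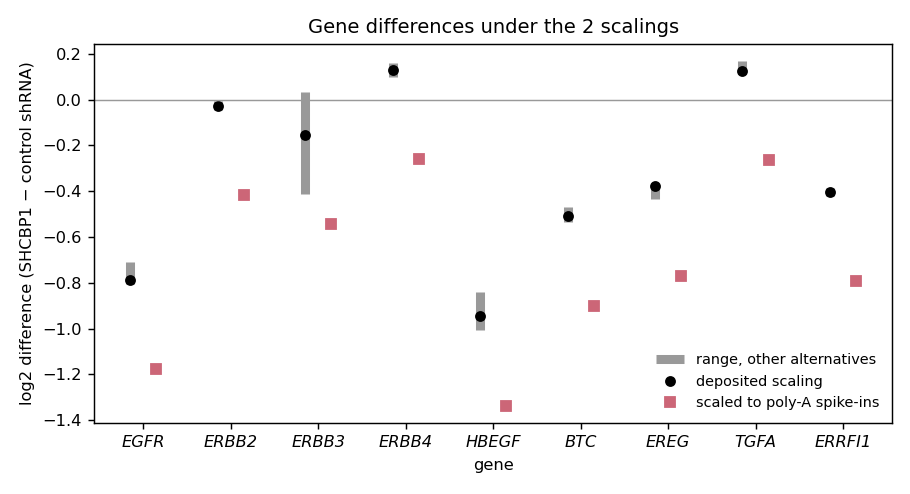
Log2 difference (SHCBP1 shRNA minus control shRNA) on the y axis for each gene on the x axis, as a black point for the deposited scaling, a red square after scaling to the poly-A spike-ins and a grey bar for the range over the other alternatives. All 9 squares lie below 0; only those of ERBB4 and TGFA are on the other side of 0 from their black points, and the grey bar of ERBB3 crosses 0.

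The genes most like EGFR over the 6 arrays, by the smallest root mean square difference of values centred on each gene's mean, were SH3RF3 (0.02 log2), CDC6 (0.02) and WARS1 (0.02), against a median of 0.41 over all genes. Their log2 differences were -0.77, -0.80 and -0.79. Those most like HBEGF were SLC6A20 (0.03), SLC35D2 (0.04) and GPR137B (0.05), against a median of 0.50. This measure takes in the size of the difference between the groups.

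The other EGF-family ligands (EGF, EPGN and the neuregulins NRG1 to NRG4) gave 0 calls among 6 genes. Their log2 differences ran from -0.06 (NRG2) to 0.14 (NRG4), with a median of 0.04 and limma adjusted p-values from 0.22 to 0.995. None of them passed an unadjusted p of 0.05 either, and with the replicate number as a block 1 was called higher. Falls among the ligands were thus called for HBEGF, BTC and EREG.

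The lists that follow are to be read against all genes, of which 41% were called, 19% lower and 22% higher, with a median of 0.02. The lists were chosen with earlier results of these data known, so this comparison is a description and no test. Of 12 genes that act in ligand release, 6 fell and 2 rose, with a median of -0.15. ADAM17, the main sheddase of HBEGF, EREG and TGFA, fell by 0.82 on the log2 scale, although its 4 probe sets ran from -1.32 to -0.04. ADAM10, known to release BTC, fell by 0.65, and another protease gene, ADAM9, fell by 1.28. TIMP3, which inhibits ADAM17, fell by 0.59. ADAM12 and FRMD8 accounted for the rises, at 0.15 and 0.22 (limma adjusted p = 0.0344 and 0.0305). Leaving out any 1 of the 6 arrays gave 0 or 1 genes of the list called higher.

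Genes that dampen ERBB receptors moved in both directions, with 9 of 19 falling and 4 rising and a median of -0.03. RNF41, a ubiquitin ligase known to act on ERBB3, fell by 0.87 on the log2 scale, and its 3 probe sets ran from -0.90 to -0.85. SOCS5, which promotes turnover of EGFR, fell by 0.68, the ubiquitin ligase gene CBLC by 0.48 and the feedback inhibitor gene SPRY2 by 0.39. CBLC and SPRY2 were measured by 1 probe set each. The rises were those of PTPN1 (0.36), PTPN2 (0.32), SPRY1 (0.20) and LRIG3 (0.18). For PTPN2 the 3 probe sets ran from -0.04 to 0.83. PTPRJ, also on that list, is not analysed here. Receptor endocytosis and sorting genes gave 4 falls and 4 rises among 16, with a median of -0.03, so 50% were called, near the 41% of all genes. The retromer-associated gene SNX1 fell by 0.66 and STAM2, which sorts ubiquitinated receptors, by 0.44. Probe sets ran from -1.01 to -0.31 for SNX1 and from -0.79 to -0.08 for STAM2. The early endosome GTPase gene RAB5A rose by 0.50, and USP8, which removes ubiquitin from EGFR, by 0.43. With spike-in scaling RAB5A was the 1 gene of the list still called higher, and USP8 was at 0.04.

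The adaptors and kinases below the receptors gave 7 falls and 5 rises among the 19 genes tested, with a median of 0.01, and the other 7 genes of that list are not analysed here. PTPN11 (the phosphatase SHP2) fell by 1.05 on the log2 scale, although its 4 probe sets ran from -2.02 to 0.07. MAPK3, which encodes ERK1, fell by 0.22, but limma no longer called it without shControl replicate 1 (adjusted p = 0.0559), shControl replicate 2 (0.0578) or shSHCBP1 replicate 3 (0.0539). It was measured by 1 probe set. HRAS rose by 0.45 and the docking protein gene GAB1 by 0.28, although the 8 probe sets of GAB1 ran from -0.07 to 0.68. With spike-in scaling HRAS was at 0.07, not called, and GAB1 at -0.11.

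ERK-induced genes, read here as transcripts known to follow the cascade, gave 13 falls and 1 rise among 18, where 19% of all genes fell and 22% rose. Their median was -0.43. Among them, PHLDA1 fell by 1.59 and IER3 fell by 1.24 in log2 units. ETV5, a transcription factor of the PEA3 group, fell by 1.45. DUSP5, a phosphatase of nuclear ERK, fell by 1.70. The values of DUSP5 and IER3 rest on 1 probe set each. Not called were ETV4, EPHA2, FOS and CCND1, with values from -0.07 to 0.03. HMGA2 was the rise, at 0.16, with probe sets from -0.20 to 1.33. With the median of probe sets or with spike-in scaling 0 genes of the list were called higher.

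**Figure D5:**
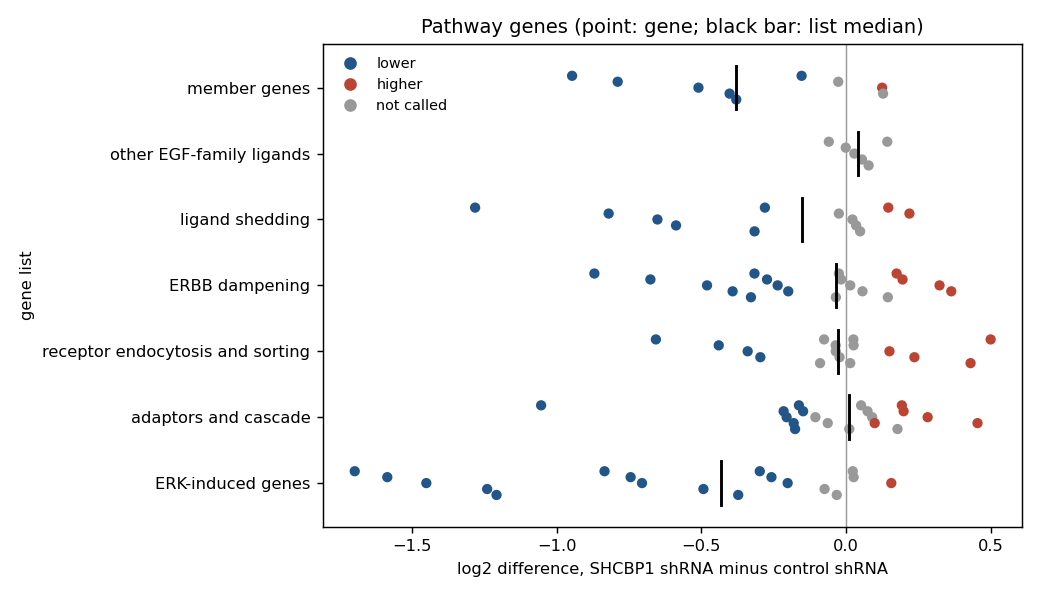
Log2 difference (SHCBP1 shRNA minus control shRNA) on the x axis for each gene of the 9 measured members and of 6 pathway lists on the y axis, coloured by call, with the list median as a black bar. The ERK-induced genes and the members have the lowest medians, -0.43 and -0.38, and none of the 6 other EGF-family ligands is called.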

How the data were processed

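RNA from 6 samples, 3 per group, was hybridised to Affymetrix PrimeView arrays, and groups and replicate numbers were taken from the sample titles. The authors deposited log2 values made with RMA, per the submitters' processing notes. Since no source names the log base, the log2 scale of RMA was assumed. In the table each probe set has a median of 0 over the arrays, a step not given in the sources used here. The array medians were -0.0038, -0.0023 and -0.0090 (control) and 0.0104, 0.0015 and 0.0030 (knockdown). Direction was checked against SHCBP1.

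Of 49395 probe sets, 102 controls, 1832 with several symbols and 2473 without one were left out. The rest were averaged per gene with no filter, since centred values hold no level, and tested with limma 3.58.1 in R 4.3.3 (lmFit, eBayes, unpaired). Single probe sets were tested likewise, and probe sets of 1 gene against each other with diffSplice. P-values were adjusted by Benjamini-Hochberg over all features. The scripts were tested on simulated data. Array number limits the precision.

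The members, lists and alternatives were chosen with earlier results of these data known. Named genes are the members, SHCBP1, up to 4 called genes with the largest changes per pathway list, and the 3 genes nearest to EGFR and to HBEGF. ADAM12, FRMD8, HMGA2, COL1A1, ETV4, EPHA2, FOS, CCND1, NRG2, NRG4, PTPN1, PTPN2, SPRY1 and LRIG3 were named after their values were seen.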

Additional observations from a re-analysis of the deposited data

How the results depend on the processing

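The falls of EGFR, HBEGF, BTC, EREG, ERRFI1 and SHCBP1 kept their direction and call under every alternative run for them, with EGFR from -1.18 to -0.71 log2 and HBEGF from -1.34 to -0.84. A filter on dim probe sets could not be run on centred values. Single probe sets and diffSplice were run under these alternatives by a choice made after seeing the data.

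Spike-in scaling, which lowers every gene alike, gave 591 genes higher and 15736 lower. Among members it gave 0 genes and 0 probe sets higher and 30 probe sets lower, with ERBB2 at -0.42, ERBB4 at -0.26, TGFA at -0.26 and GAB1 at -0.11. Probe sets that changed sign were 11725911_a_at (-0.0662) and 11725912_a_at (-0.30) of ERBB4, 11728302_at (-0.25), 11728303_at (-0.17) and 11745159_a_at (-0.25) of TGFA, 11738815_at (-0.29) of EGFR, and 11751416_a_at (-0.36) and 11755005_a_at (-0.38) of ERBB2. In the lists it called 6 other ligands lower, 11 shedding genes lower and 0 higher, 17 dampening genes lower and 0 higher, 14 sorting genes lower and 1 higher, 17 adaptor genes lower and 0 higher, and 0 ERK-induced genes higher.

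Deviations of same-numbered arrays from their group means had correlations of 0.02, -0.05 and 0.07. With 3 arrays per group these cannot decide whether same-numbered arrays were handled together. With the replicate number as a block 2 members were called higher, ERBB4 at 0.13 included, 1 other ligand was called higher and 0 shedding genes were. Array weights called 2 members higher, with ERBB4 at 0.13. Centring the arrays and the median of probe sets each left 1 shedding gene higher, and the median left 0 ERK-induced genes higher. Without _s_at and _x_at probe sets ERBB3 was at 0.0330 and 4 adaptor genes were lower; fewer probe sets were then averaged. For the other changes the cause was not tested.

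Leaving out 1 array gave 0 to 2 members higher, 0 to 1 shedding genes higher, ERBB4 at 0.10 to 0.16 and TGFA at 0.11 to 0.13. Uncalled probe sets near 0 changed sign: 11725913_a_at ran from -0.0443 to 0.0086, 11745160_s_at from -0.0307 to 0.0273, 11751416_a_at from -0.0359 to 0.0801, 11755005_a_at from -0.0582 to 0.0443 and 11762165_x_at from -0.0685 to 0.0229. For 11755005_a_at repeated quantile normalization gave -0.0081, centring -0.0026 and array weights -0.0060, and array weights gave 0.0038 for 11745160_s_at.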
